A study of Mus musculus with 4 samples.

Results

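Neurexins sit in the presynaptic membrane and bind, across the synaptic cleft, the postsynaptic neuroligins and the leucine-rich repeat transmembrane (LRRTM) proteins. These contacts help to organise the release site on one side and the receptor field on the other, and the neurexin genes are known for extensive alternative splicing that changes which partners they bind. Described here are 9 genes of this system, taken by symbol from a deposited table of 32681 genes: the neurexins Nrxn2 and Nrxn3, the neuroligins Nlgn1, Nlgn2 and Nlgn3, and Lrrtm1, Lrrtm2, Lrrtm3 and Lrrtm4. The members were all found in the table and all 9 passed the filter on low reads.

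RNA was sequenced from 4 primary neuron cultures prepared from the neocortex of wild-type CD-1 mice at embryonic day 13. A control short hairpin RNA (shRNA) had been transfected into 2 of them, and the other 2 had received an shRNA that targets DcpS. This decapping scavenger cleaves the cap that remains once the exosome has degraded an mRNA from its 3′ end. One shRNA against DcpS is represented, so what its sequence does and what loss of DcpS does cannot be told apart. The labels do not say whether untransfected cells were removed or whether the cultures came from separate litters, and p-values therefore measure only the spread between these libraries, which may be technical.

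The libraries held 17754768 to 21793685 reads. Values below are normalised read counts, reads divided by 1 size factor per library, unless another scale is named. Dcps, the targeted gene, had 499.8 and 506.6 in the control libraries, against 114.5 and 119.6 after DcpS shRNA. All 8 neuron markers listed, among them Tubb3 and Map2, were detected in each library, at a summed 4283 to 4364 CPM (reads scaled to a common library total) in the controls and 4050 to 4127 CPM with DcpS shRNA. Of these 8, 2 were called lower (Snap25 and Syt1) and 2 higher (Rbfox3 and Slc17a7). Fibroblast and matrix markers were summed at 560 to 616 CPM in the controls and 330 to 341 CPM with DcpS shRNA, and 6 of 6 were lower. Astrocyte markers, with 3 lower and 1 higher of 6 tested, were summed at 383 to 390 CPM and 381 to 390 CPM. The median log2 fold change of these 6 was −0.55, so the similar sums do not mean that the single markers were equal. Endothelial and mural markers, with 3 lower of 5 tested, were summed at 34.3 to 38.2 CPM and 20.3 to 21.9 CPM. Progenitor markers, with 1 higher of 5 tested, were summed at 988 to 1015 CPM and 1019 to 1131 CPM. Oligodendrocyte lineage markers had 1 lower and 1 higher of 6 tested, and interneuron and microglia markers had 0 calls. Over all tested genes, 5.79% were called, 3.65% as lower and 2.14% as higher. The part of these marker differences in the results below was not tested. In whole cultures, fewer cells of a type and less RNA per cell cannot be told apart.

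Nrxn2 fell with DcpS shRNA, and it was the only member that passed the test in either direction. Nrxn2 (chromosome 19, 6418731 to 6544169, plus strand, GRCm38, GENCODE M21) encodes neurexin 2, a presynaptic receptor. It had 2629 and 2494 normalised read counts in controls 1 and 2, and 1705 and 1502 in DcpS shRNA libraries 1 and 2. Both DcpS shRNA libraries lay well below both controls, and the gap between the groups was larger than the difference between libraries of either group. The mean was 2562 ± 95.5 in the controls and 1604 ± 144 with DcpS shRNA (SD, n = 2 per group), which is 62.6% of the control mean. The log2 fold change was −0.68 (SE 0.06, limma, Benjamini-Hochberg adjusted p 6.33e-06). Ranked among the 12289 tested genes whose mean reached 5 CPM, it was the 80th largest fall. The test called 5.79% of all 18110 genes tested, 3.65% as lower and 2.14% as higher, against 1 lower and 0 higher of the 9 members. At an unadjusted limma p under 0.05 there were 3 lower and 1 higher members, a level that 18.7% of all tested genes reached (9.92% lower and 8.75% higher). With edgeR and DESeq2, too, 1 member was called lower and 0 higher. Without 1 library at a time the log2 fold change of Nrxn2 ran from −0.77 to −0.59.

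**Figure D1:**
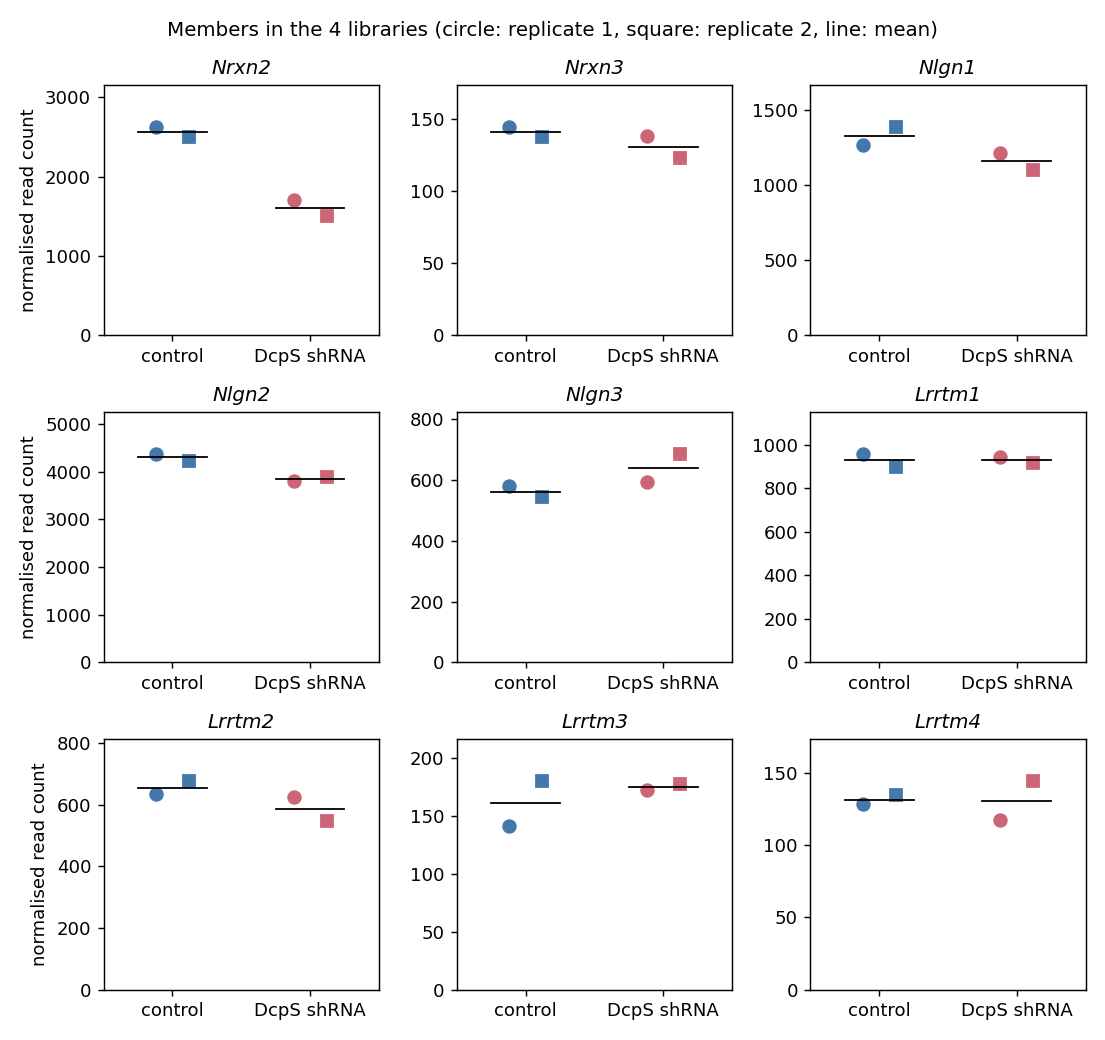
Normalised read counts (y axes, each from 0) of the 9 members in each library, by group (x axis), with circles for replicate 1, squares for replicate 2 and a line at the group mean. The DcpS shRNA libraries of Nrxn2, at 1705 and 1502, sit below both controls, and the groups lie close together or overlap for the other members.

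The 3′ untranslated region (UTR) of Nrxn2 held short words that the Dcps messenger RNA also has. Earlier results on these libraries had singled out the 7-base words ACGTGCA and CACGTGC, which occur in the Dcps 3′ UTR and are frequent in the 3′ UTRs of lower genes, so their choice is not independent of these data. The sites below are shown because Nrxn2 was the only member with either word on the sense strand of an annotated coding transcript's 3′ UTR. Capitals mark the word, and the flanking bases come from GENCODE M21 transcripts.

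Dcps, minus strand, chr9:35124757-35124763: tatcacctgCACGTGCatttcacag

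Nrxn2, plus strand, chr19:6532402-6532408: caggcagggCACGTGCtcacagccc

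Nrxn2, plus strand, chr19:6532902-6532908: tgccgggcaACGTGCAttgctggga

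The Dcps site also reads as ACGTGCA, shifted by 1 base, and lay in the 3′ UTR of 1 of 2 annotated coding transcripts. In Nrxn2 the first site began at base 254 of the 3′ UTR, counted from 1 after the stop codon, and was present in 5 of 8 coding transcripts, and the second began at base 754 and was present in 4 of 8. The Nrxn2 transcript with the longest 3′ UTR, 1779 bases, uses a separate downstream end and held neither word, so a scan of that transcript alone would not find them. Of 13709 tested genes with a scanned 3′ UTR, 8% had a word in at least 1 transcript, as did 33.1% of 646 called lower genes and 6.25% of 368 called higher genes. A match is a description of the letters only, and whether the shRNA acted at these sites was not tested.

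Nrxn3 (chromosome 12, 88722876 to 90334935, plus strand), which encodes neurexin 3, was far less abundant and was not called. It had 144.4 and 137.4 normalised read counts in the control libraries, against 138.1 and 122.9 after DcpS shRNA, so that the groups overlapped. The log2 fold change was −0.11 (95% interval −0.40 to 0.18, limma adjusted p 0.733). With 110 to 152 reads per library, a fall as large as that of Nrxn2 lies outside this interval, and falls smaller than its lower bound lie inside it.

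Within the pair, Nrxn2 took 94.8% and 94.8% of the reads of Nrxn2 and Nrxn3 in the control libraries, against 92.5% and 92.4% after DcpS shRNA. This share needs no scaling factor, and its groups did not overlap. It rests on the same Nrxn2 reads as the test above, so it is not separate support for the fall of Nrxn2. The difference was −2.31 percentage points (exact permutation test, two-sided p 0.333, the smallest that 2 against 2 libraries allow).

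Neuroligins are postsynaptic receptors of neurexins, Nlgn1 mainly at excitatory synapses, Nlgn2 mainly at inhibitory synapses and Nlgn3 at both. None of the 3 was called by limma, edgeR or DESeq2, although all 3 had an unadjusted limma p under 0.05, as did 18.7% of all tested genes. Nlgn1 and Nlgn2 had lower values with DcpS shRNA and Nlgn3 had higher ones.

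Nlgn2 (chromosome 11, 69823122 to 69837784, minus strand) had the highest read count of the members. It had 4377 and 4237 normalised read counts in the control libraries, against 3815 and 3882 after DcpS shRNA. Both treated libraries were below both controls, at 89.3% of the control mean. Its log2 fold change was −0.16 (SE 0.05, 95% interval −0.27 to −0.05), and it missed the threshold (limma adjusted p 0.0776). Whether Nlgn2 passed changed with the library left out, at log2 fold changes from −0.19 to −0.14. With DESeq2 its adjusted p was 0.212.

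Nlgn1 (chromosome 3, 25426215 to 26332460, minus strand) had 1271 and 1392 normalised read counts in the control libraries, against 1216 and 1105 after DcpS shRNA. The groups did not overlap, but the lower control and the higher treated library lay closer to each other than the libraries of either group. For Nlgn1 the log2 fold change was −0.20 (SE 0.07, 95% interval −0.34 to −0.06, limma adjusted p 0.101). Whether Nlgn1 passed also changed with the library left out, at log2 fold changes from −0.27 to −0.13. With DESeq2 its adjusted p was 0.414.

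Nlgn3 (chromosome X, 101299168 to 101325963, plus strand) had 580.6 and 543.5 normalised read counts in the control libraries, against 592.4 and 686.1 after DcpS shRNA. DcpS shRNA 1 was close to control 1, and DcpS shRNA 2 was the highest of the 4. The log2 fold change was 0.18 (SE 0.08, 95% interval 0.01 to 0.36, limma adjusted p 0.250), and it passed only without DcpS shRNA 1 (0.29, limma adjusted p 0.0294). Its exons share 41.2% of their bases with Gm21986, a transcript on the same strand listed at 4.10 to 12.3 normalised read counts. How reads of that overlap were assigned is not given in the sources used here.

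Among the reads of the 3 neuroligins, the share of Nlgn3 was 9.32% and 8.81% in the control libraries, against 10.5% and 12.1% after DcpS shRNA. Nlgn2 took 70.3% and 68.6% in the control libraries, against 67.8% and 68.4% after DcpS shRNA, and Nlgn1 overlapped between the groups at 19.5% to 22.5%. The differences were 2.25 percentage points for Nlgn3 and −1.32 points for Nlgn2. Both had an exact permutation p of 0.333, the smallest that 2 against 2 libraries allow.

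LRRTM proteins are postsynaptic ligands of neurexins at excitatory synapses. Of the 4 genes, 0 were called by limma, edgeR or DESeq2, beside 5.79% of all tested genes called by limma. At an unadjusted limma p under 0.05 there were 0, beside 18.7% of all tested genes. With only 4 genes, such counts are near those shares. The median log2 fold change of the 4 was −0.01. Lrrtm1, Lrrtm2 and Lrrtm3 each lie inside a gene for an alpha-catenin, an adaptor between cadherins and actin, on the opposite strand.

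Lrrtm1 (chromosome 6, 77242689 to 77257791, plus strand) was at the same level in both groups. It had 957.8 and 898.4 normalised read counts in the control libraries, against 943.1 and 914.1 after DcpS shRNA, and both treated libraries fell between the controls. A log2 fold change of 0.0014 was estimated (95% interval −0.14 to 0.14, limma adjusted p 0.994), and its sign changed with the scaling (−0.0032 with TMM). Its host Ctnna2 also did not pass (−0.02, limma adjusted p 0.907), with 4507 and 4667 in the control libraries, against 4405 and 4660 after DcpS shRNA.

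Lrrtm2 (chromosome 18, 35209003 to 35215024, minus strand) had 633.8 and 676.8 normalised read counts in the control libraries, against 626.0 and 547.6 after DcpS shRNA. Control 1 and DcpS shRNA 1 were nearly equal, and DcpS shRNA 2 was the lowest. The log2 fold change was −0.16 (95% interval −0.33 to 0.01, limma adjusted p 0.300). Among reads of the 4 LRRTM genes, Lrrtm2 took 34.0% and 35.8% in the controls, against 33.7% and 30.7% after DcpS shRNA. That difference was −2.74 percentage points (exact permutation test, p 0.333), and the shares of Lrrtm1, Lrrtm3 and Lrrtm4 overlapped between the groups. The host Ctnna1, which shares 1.58% of the exon bases of Lrrtm2, was called lower (−0.24, SE 0.05, limma adjusted p 0.0113). Ctnna1 had 3144 and 3201 in the control libraries, against 2739 and 2634 after DcpS shRNA, and its call ended without control 1 (limma adjusted p 0.0512) or control 2 (0.113). Of the reads of both genes, Lrrtm2 took 16.8% and 17.5% in the control libraries, against 18.6% and 17.2% after DcpS shRNA, which overlapped. Use of strand in counting is not given in the sources used here, so reads of the 2 genes may be mixed where they overlap. Because Lrrtm2 lies wholly inside Ctnna1, this may reach beyond the shared exon bases. The same limit holds for Lrrtm1 inside Ctnna2.

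Lrrtm3 (chromosome 10, 63928472 to 64090277, minus strand) had 141.6 and 180.5 normalised read counts in the control libraries, against 172.6 and 177.7 after DcpS shRNA. The controls spanned both treated libraries, and control 1 minus control 2 was −0.35 on the log2 scale, where counting alone gives an SE of 0.16. Its log2 fold change was 0.13 (95% interval −0.16 to 0.42, limma adjusted p 0.679). Its host Ctnna3 had 1 to 4 reads in every library and was not tested.

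Lrrtm4 (chromosome 6, 80018877 to 80810143, plus strand), which also binds glypicans, had 128.3 and 134.3 normalised read counts in the control libraries, against 117.2 and 144.2 after DcpS shRNA. The treated libraries lay on either side of the controls. For Lrrtm4 it was −0.01 on the log2 scale (95% interval −0.32 to 0.30, limma adjusted p 0.975). Gm4409, which shares 25.1% of its exon bases on the opposite strand, had at most 1.03 normalised read counts.

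**Figure D2:**
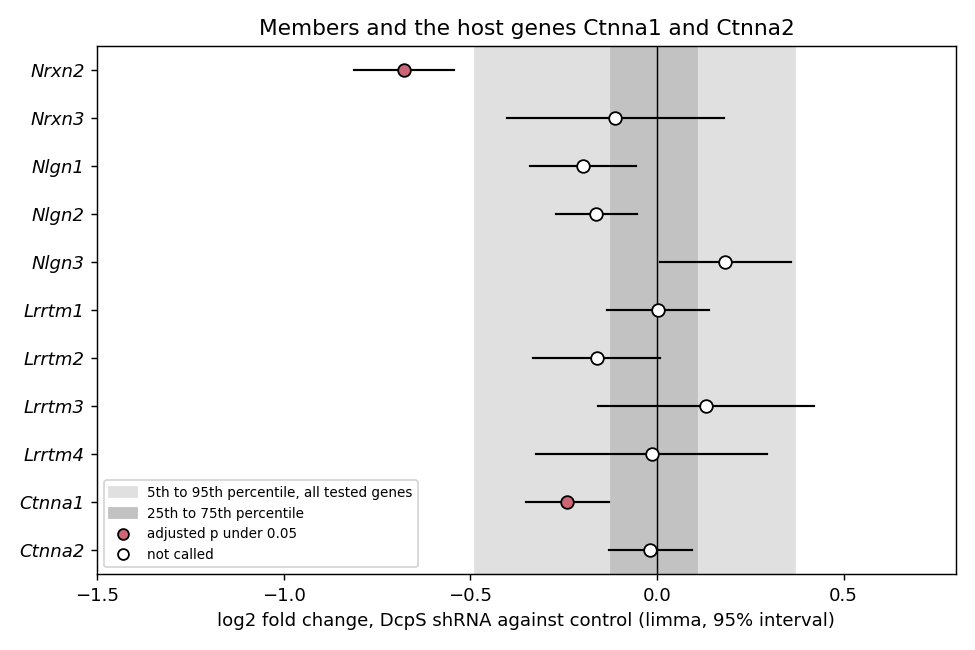
Log2 fold change (x axis, DcpS shRNA against control) of the 9 members and of the hosts Ctnna1 and Ctnna2, with 95% limma intervals; grey bands span the 5th to 95th and the 25th to 75th percentile of all tested genes. Nrxn2, at −0.68, lies outside the wider band, and every other member lies inside it.

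The median log2 fold change of the 9 members was −0.11, beside 0.0007 for all tested genes. The libraries of the groups did not overlap for 5 members, 4 lower and 1 higher. Of all tested genes, 48.4% did not overlap either (24% lower and 24.4% higher), so the members' count is near that background.

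**Figure D3:**
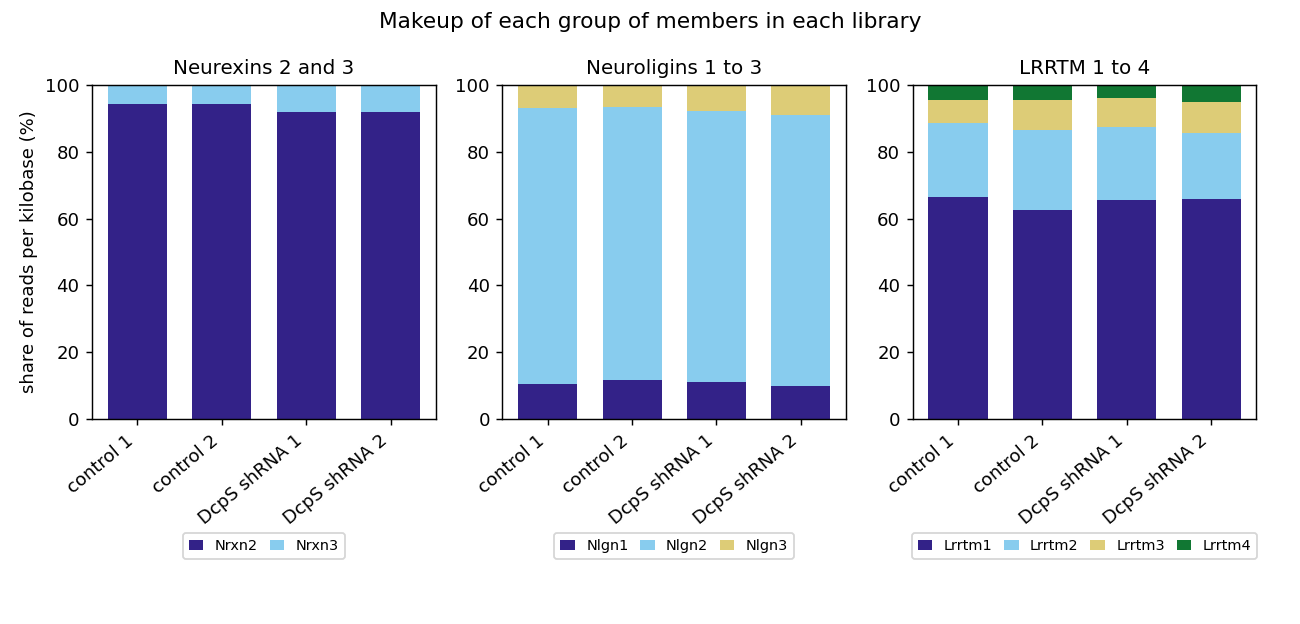
Share of each member (y axis, percent of reads per kilobase of exon) within the neurexin pair, the neuroligins and the LRRTM genes, stacked for each library (x axis). Nrxn2 takes 94.3% in both controls and 91.8% in both DcpS shRNA libraries, and Nlgn2 and Lrrtm1 take most of their groups in all 4 libraries.

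Levels between genes were compared as RPKM, reads per kilobase of annotated exon scaled to the library total. In the controls, the level of Nlgn2 was 37.6 ± 0.829 RPKM (SD, n = 2), followed by Lrrtm1 at 15.4 ± 0.685 RPKM and Nrxn2 at 9.36 ± 0.340 RPKM. Lrrtm2 (5.49 ± 0.260 RPKM) and Nlgn1 (5.01 ± 0.324 RPKM) followed, and their difference was smaller than their SDs added together. Nlgn3 stood at 3.06 ± 0.140 RPKM, Lrrtm3 at 1.91 ± 0.328 RPKM, Lrrtm4 at 1.08 ± 0.0362 RPKM and Nrxn3 at 0.564 ± 0.0193 RPKM. The order of the 9 means was the same with DcpS shRNA. There Nrxn2 stood at 5.86 ± 0.534 RPKM and Lrrtm2, next in order, at 4.92 ± 0.472 RPKM, a difference smaller than their SDs added together. Annotated exons pool all transcripts of a gene, so the scale understates genes whose cultured neurons use few of them. The exons of Nlgn3 and Lrrtm4 share 41.2% and 25.1% of their bases with other annotated genes. How reads there were counted is not given, so both levels may be understated and their places in the order are uncertain.

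Other extracellular ligands of neurexins gave 0 calls in either direction among 19 tested of 22 listed, with a median log2 fold change of −0.09. Over all tested genes, 5.79% were called. The cerebellin Cbln2, a secreted bridge between neurexins and glutamate receptors, had −0.39 (limma adjusted p 0.136). Dystroglycan, Dag1 (0.02), and the latrophilin Adgrl1 (0.03) were close to 0. In this list, C1ql2, Tafa3 and Tafa4 were too low to test. At an unadjusted limma p under 0.05 there were 3 lower and 2 higher of the 19, beside 18.7% of all tested genes, and edgeR and DESeq2 also called 0. Without DcpS shRNA 1, limma called 2 lower and 1 higher.

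Genes for proteins that bind or process these adhesion molecules or regulate neurexin splicing gave 2 lower and 1 higher calls among 11 tested, with a median of −0.06. The called share was 27.3%, beside 5.79% of all tested genes. Mdga2, which binds neuroligins on the same membrane and blocks neurexins, had 590.1 and 652.2 normalised read counts in the control libraries, against 534.2 and 480.5 after DcpS shRNA (log2 fold change −0.29, limma adjusted p 0.0489). Adam10, a protease that sheds surface proteins, fell by 0.19 on the log2 scale (limma adjusted p 0.0451). Gpc4, a glypican that binds Lrrtm4, rose by 0.21 (limma adjusted p 0.0359). These 3 calls were near the threshold and ended with DESeq2 (adjusted p 0.279, 0.183 and 0.201) and without control 2 (limma adjusted p 0.331, 0.276 and 0.0713). Without control 1 those of Adam10 (0.228) and Gpc4 (0.322) ended as well, and without DcpS shRNA 2 that of Mdga2 (0.173). The neuroligin-binding relative Mdga1 did not pass (−0.0015), nor did Khdrbs1, Khdrbs2 and Khdrbs3, RNA-binding proteins known to regulate neurexin splicing, which had 0.03, −0.06 and −0.09.

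Among 19 intracellular scaffold partners 2 were higher and 0 lower, with a median of −0.01. This was 10.5% called, beside 5.79% of all tested genes. At an unadjusted limma p under 0.05 there were 5 higher and 3 lower of the 19, beside 18.7% of all tested genes. Both edgeR and DESeq2 called the same numbers as limma, and without DcpS shRNA 1 limma called 3 higher and 1 lower. Lin7c, part of a scaffold complex with Cask on the neurexin tail, had 3860 and 3729 normalised read counts in the control libraries, against 5014 and 5284 after DcpS shRNA. Its log2 fold change was 0.44 (SE 0.05, limma adjusted p 7.23e-05). Dlg2, a postsynaptic scaffold, had 954.0 and 1056 in the control libraries, against 1336 and 1395 after DcpS shRNA (0.44, SE 0.06, limma adjusted p 0.000501). In both genes every treated library was above every control. Cask did not pass (−0.14, limma adjusted p 0.140), nor did Dlg4, the neuroligin-binding scaffold PSD-95 (0.05), or gephyrin, Gphn, of inhibitory synapses (−0.09).

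Other trans-synaptic organizers gave 10 lower and 2 higher calls among 36 tested genes, with a median of −0.14. That is 33.3% called, beside 5.79% of all tested genes. The largest fall was in Ntng1, netrin-G1, a membrane-anchored adhesion protein, with 291.7 and 292.3 normalised read counts in the control libraries, against 182.6 and 192.2 after DcpS shRNA (−0.64, SE 0.11, limma adjusted p 0.0016). The teneurin Tenm3 (−0.41), the latrophilin ligand Flrt2 (−0.37) and the neurotrophin receptor Ntrk3 (−0.34), which also binds a presynaptic phosphatase, fell as well. Elfn2 (0.36) and Lrfn5 (0.36), leucine-rich repeat adhesion proteins, rose. Without control 1 the count of lower genes was 6 and with DESeq2 it was 5, and the 6 genes named here were called under every alternative run. Of the 10 lower genes, Ntrk3, Adgrl3 and Cadm2 have either 3′ UTR word, and Ntng1, Tenm3 and Flrt2 have neither. The remaining lower genes of this list are not described for the words here. Among all called lower genes with a scanned 3′ UTR, 33.1% have a word.

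**Figure D4:**
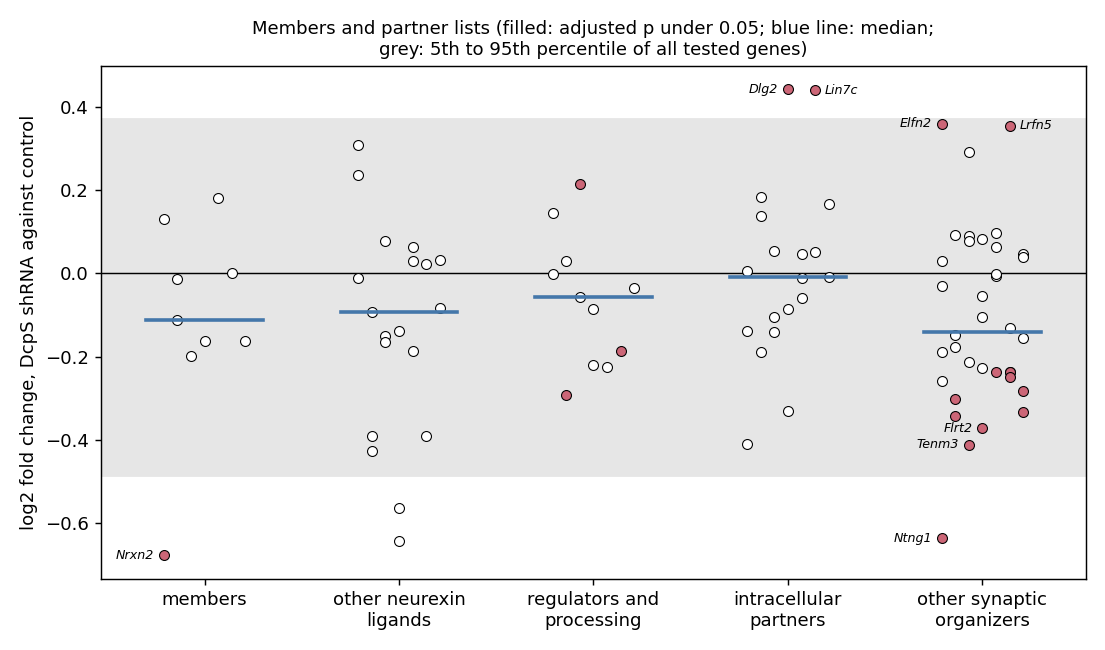
Log2 fold change (y axis) of the members and of the tested genes of 4 partner lists (x axis), filled where the limma adjusted p was under 0.05, with the median of each list as a blue line and the 5th to 95th percentile of all tested genes in grey. Nrxn2 and Ntng1 are the lowest called genes, and Lin7c and Dlg2 the highest.

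The genes whose pattern over the 4 libraries was most like that of Nrxn2 were Slc7a2, an amino acid transporter, Otud3, a deubiquitinase, and Col26a1, a collagen. Likeness was the smallest Euclidean distance between centred log2 values, over the 12280 tested genes, members aside, whose mean reached 5 CPM, and it was 0.0741, 0.0762 and 0.0798. Their log2 fold changes were −0.68, −0.61 and −0.69. Slc7a2, Otud3 and Col26a1 have neither 3′ UTR word.

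**Figure D5:**
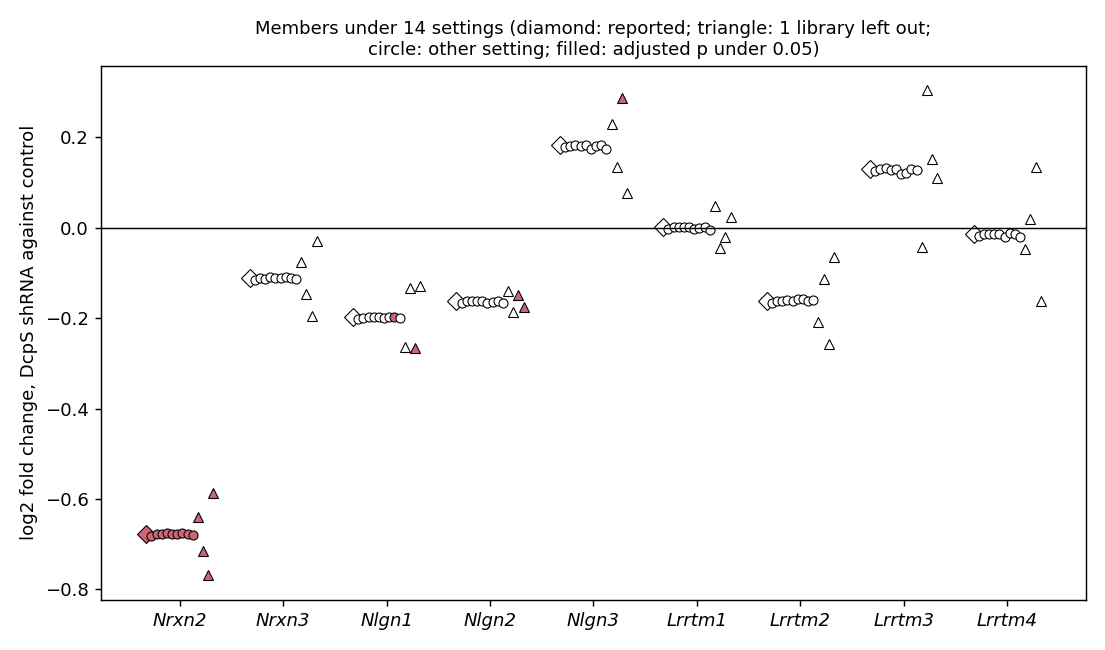
Log2 fold change (y axis) of each member (x axis) under 14 settings, with a diamond for the reported value, triangles for 1 library left out and circles for other settings, filled where the adjusted p was under 0.05. Nrxn2 is filled in all 14 and runs from −0.77 to −0.59, and Nlgn1, Nlgn2 and Nlgn3 are filled in 1 or 2.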

How the data were processed

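The deposited table holds a signal scaled by the authors: reads per gene divided by 1 factor per library, with libraries not pooled. Dividing each column by its smallest positive value gave whole reads for 100% of values (tolerance 0.001), and the factors equalled median-of-ratios size factors computed from those reads. The submitters' processing notes name HISAT2 2.2.0, SAMtools 1.3.1, Picard, featureCounts, DESeq2 and GRCm38; annotation, strand use and the treatment of reads that fit several genes are each not given in sources used here.

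Genes passing edgeR's filterByExpr (minimum count 10) were tested with limma 3.58.1 (R 4.3.3) on the log2 scale after adding a pseudocount of 1 (trended, robust empirical Bayes; group alone in the model). Tests were two-sided, and calls needed a Benjamini-Hochberg adjusted p under 0.05. Fold changes share that log2(value + 1) scale, on which those of low genes are understated. The count test on recovered reads was an alternative (edgeR 4.0.16, DESeq2 1.42.0), beside other scalings, pseudocounts 0.5 and 5, no filter, a replicate block and each library left out. The script was tested on simulated reads. A count of 0 allows up to 3 reads, 0.138 to 0.169 CPM, for counting error only.

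Positions, exon lengths and 3′ UTRs came from GENCODE M21 on GRCm38. Within each partner list the called genes, at most 4 per direction by size, were named, with the catenin hosts always; other partner genes in the text were chosen after their values were seen. Members, lists and 3′ UTR words were chosen with earlier results of these data known.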

Additional observations from a re-analysis of the deposited data

How the results depend on the processing

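Nrxn2 kept its direction and its call under all 13 alternatives. Over all genes, 1048 were called (387 higher, 661 lower); DESeq2 called 448 (137 higher, 311 lower), limma with the replicate block 1626 (646 higher), and leaving out 1 library gave 747 to 1745 (277 to 637 higher, 470 to 1108 lower), with 1745 without DcpS shRNA 1. With the replicate block limma called 2 members lower, the added one being Nlgn1 (−0.20, adjusted p 0.0353); edgeR with the same block called 1, with Nlgn1 at adjusted p 0.0534. Other member calls did not change with either block. The labels do not say whether same-numbered libraries were prepared together. Such libraries deviated together with a correlation of 0.04 across genes, which does not decide whether they were paired.

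Without 1 library, 1 to 3 members were lower and 0 to 1 higher, and log2 fold changes ran from −0.27 to −0.13 for Nlgn1, −0.19 to −0.14 for Nlgn2, 0.077 to 0.29 for Nlgn3, −0.20 to −0.029 for Nrxn3, −0.26 to −0.065 for Lrrtm2, −0.045 to 0.048 for Lrrtm1, −0.043 to 0.30 for Lrrtm3, −0.16 to 0.13 for Lrrtm4 and −0.058 to 0.023 for Ctnna2. Lrrtm1 was also below 0 with TMM (−0.0032), edgeR (−0.0035), DESeq2 (−0.00012) and edgeR with the block (−0.0042). Partner counts without 1 library were 0 to 2 lower and 0 to 1 higher for neurexin ligands, 0 to 2 lower and 0 to 1 higher for regulators, 0 to 1 lower for scaffolds, 6 to 14 lower for other organizers and 0 to 1 lower for hosts. Library-total scaling left 1 lower regulator, and DESeq2 left 0 lower and 0 higher regulators and 5 lower organizers. The cause of these changes was not tested. Reads of 110 to 190 per library limit Nrxn3, Lrrtm3 and Lrrtm4.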
